A study of Rattus norvegicus with 9 samples.

Results

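Testosterone given together with dexamethasone was compared with dexamethasone alone in calf muscle (gastrocnemius, which mixes slow and fast fibres) of male Wistar rats of 250 g. All samples of both treatment groups were used, 3 arrays for each group, which is 6 of the 9 arrays of the study. The other 3 arrays, from rats given only the vehicle, entered the fit and served as a reference level. Each array held the RNA of 1 animal. Dexamethasone, a synthetic glucocorticoid, was infused at 0.7 mg/kg/day by Alzet osmotic pumps for 7 days. The combination group received the same dose with testosterone, and all 3 groups received propylene glycol, in which the hormones were dissolved. The testosterone dose is 28 mg/kg/day in the sample labels and 20 mg/kg/day in the series design, a difference that could not be settled here. There was no group with testosterone alone and the labels name no castration, so the comparison gives what testosterone added to the glucocorticoid, in rats with testes as far as stated, and not its own effect in untreated muscle. Samples within a group came from separate rats, so the spread between arrays includes the spread between animals.

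Glucocorticoids bind the glucocorticoid receptor, which moves to the nucleus and acts on genes near its DNA sites. In muscle, high glucocorticoid levels are known to raise protein breakdown through ubiquitin ligases, the proteasome and autophagy, and to restrain protein synthesis through repressors of the mTORC1 kinase. Androgens such as testosterone are known to increase muscle mass. Glucocorticoid excess wastes fast, glycolytic fibres more than slow, oxidative ones.

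Signals were put on a common scale and are given as log2(intensity + 16), with differences on the same scale. Of 31042 probe sets other than controls, 18625 passed a filter on mean signal and were tested with limma. All arrays carried strong muscle signal: the median level of the 7 fibre markers (Acta1, Ckm, Myh4, Tnnt3, Myh2, Mb and Des) was 14.56 to 14.87. These lie near the top of the scale, which quantile normalization levels between arrays, so they show the tissue and not equal amounts. Replicate 3 of both hormone groups stood apart in the ratio of 3' to 5' control signal. Gapdh signal at the 3' end exceeded that at the 5' end 4.94 times (dexamethasone) and 6.22 times (combination), against 1.06 to 1.17 times in the other 7 arrays. The labels name no batch. The deposited scaling and the spiked control RNAs also split the arrays by replicate number, and from this a technical batch was inferred. On that reading, a difference between same-numbered hormone arrays lies within 1 batch. Vehicle replicate 3 is the exception and falls with the arrays numbered 1.

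Few single genes passed the test, and those that did rose and fell by large factors. The combination differed from dexamethasone alone in 21 probe sets (0.113% of those tested; Benjamini-Hochberg adjusted p under 0.05), 13 of them higher (0.0698%) and 8 lower (0.043%). They stood for 9 genes that rose, 7 that fell and 5 probe sets with no gene symbol here. At an unadjusted p under 0.05 there were 2040 probe sets. All 21 had the 3 combination arrays outside the range of the 3 dexamethasone arrays, which held for 14.6% of the probe sets tested (7.24% higher, 7.35% lower). That is in large part built in, since the 21 were picked for a difference between these same arrays. In 20 of the 21 the dexamethasone arrays also lay outside the vehicle range (22.9% of all tested). In 14 the combination arrays overlapped the vehicle arrays, and in 7 they did not (13.3% of all tested did not). The comparisons with vehicle share arrays with the comparison of the hormone groups, so these values stand side by side as a description. Between the combination and vehicle no probe set passed in limma (lowest adjusted p = 0.27), with 1139 at an unadjusted p under 0.05. Since whole muscle was measured, fewer cells of a type and less RNA per cell cannot be told apart in any of these values. The number of calls rested on single arrays: it was 0 without vehicle replicate 3, dexamethasone replicate 1 or 2, or any 1 of the combination arrays, 1 without vehicle replicate 2, 5 without vehicle replicate 1 and 67 without dexamethasone replicate 3. Without replicate 3 of both hormone groups it was 39, of which 11 were among the 21, when the other 7 arrays were normalized by themselves, and 0 (lowest adjusted p = 0.0507) when the normalization over 9 arrays was kept, an alternative added after seeing the data. With the technical batch as a block over 9 arrays 22 passed, of which 12 were among the 21; Fah, Ctdspl, Kcnq5, Pla2g12a, St3gal2, Tfdp1 and 3 unnamed probe sets lost their call (adjusted p at most 0.0688). On the 6 hormone arrays alone, where batch and replicate number coincide, the block left 0 calls (lowest adjusted p = 0.269).

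**Figure D1:**
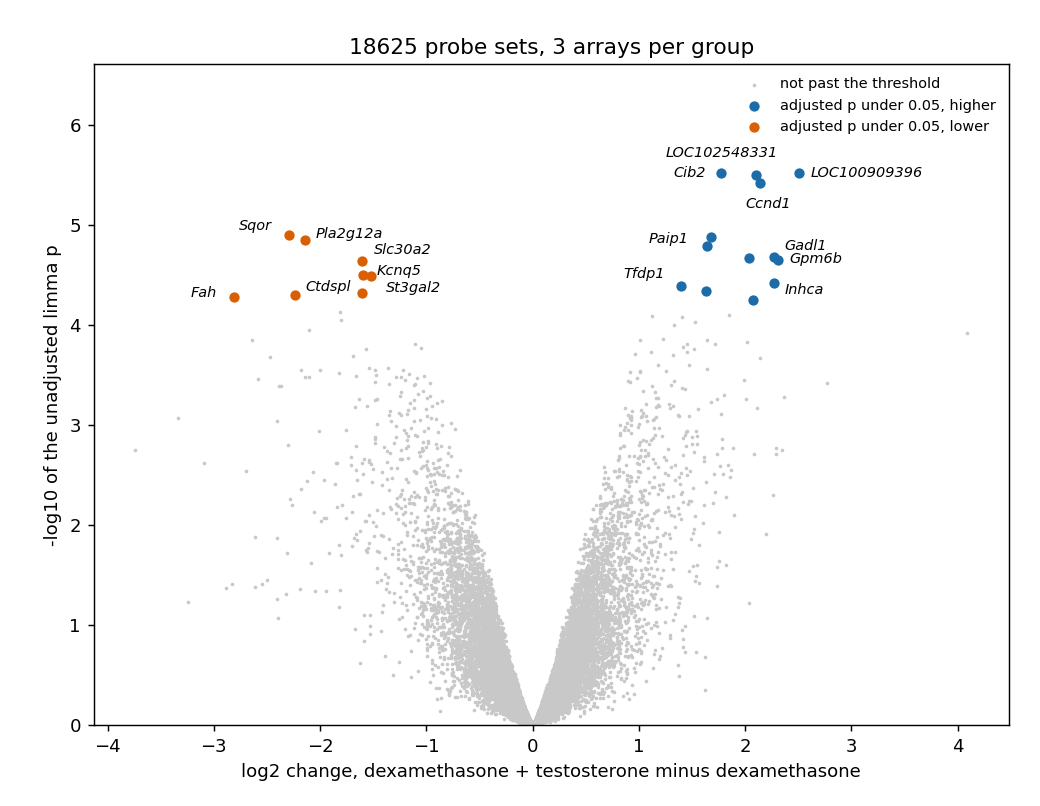
Log2 change between the combination and dexamethasone (x axis) against the −log10 of the unadjusted limma p (y axis) for 18625 probe sets, 3 arrays per group. The 13 probe sets past the threshold that rose lie at 1.40 to 2.51 and the 8 that fell at -2.81 to -1.52; unlabelled coloured points have no gene symbol here.

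Among the genes that fell were enzymes of amino acid and sulfide breakdown, a zinc transporter and a potassium channel. Fah, fumarylacetoacetate hydrolase, which carries out the last step of tyrosine breakdown, had the largest fall. Its level was 6.40, 6.51 and 6.42 in the vehicle arrays, 10.47, 8.89 and 8.93 under dexamethasone, and 6.23, 6.72 and 6.92 in the combination. The dexamethasone arrays were far above both other groups, which overlapped. The change from dexamethasone was -2.81 ± 0.40 (SE, n = 3 per group, 95% interval -3.70 to -1.91), a 7.00-fold lower signal (adjusted p = 0.049). Sqor, the mitochondrial enzyme that oxidizes hydrogen sulfide, was at 9.84, 9.42 and 9.32 in vehicle, 11.21, 11.85 and 11.39 under dexamethasone, and 8.85, 9.07 and 9.65 in the combination. It fell by 2.29 ± 0.27 on the log2 scale, or 4.89-fold (adjusted p = 0.036), and the combination overlapped vehicle.

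Slc30a2, which encodes the zinc transporter ZnT2 of vesicle membranes, had 6.06, 6.12 and 6.22 in vehicle, 8.08, 7.48 and 7.67 under dexamethasone and 6.26, 6.21 and 5.93 in the combination. Its change was -1.61 ± 0.21 (adjusted p = 0.036), and the difference between the combination and vehicle was 0.00. A second, dimmer probe set of the gene gave -2.26 and did not pass (adjusted p = 0.224). Ctdspl, a nuclear phosphatase known to act on the retinoblastoma protein, read 7.56, 7.70 and 7.71, then 10.68, 9.52 and 9.75, then 7.54, 7.51 and 8.18 in vehicle, dexamethasone and combination. The change was -2.24 ± 0.32 (adjusted p = 0.0488). Its other probe set gave -1.84 (adjusted p = 0.227).

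Kcnq5, a voltage-gated potassium channel subunit, was at 9.90 to 10.34 in vehicle, 11.43 to 11.89 under dexamethasone and 9.79 to 10.19 in the combination. The change was -1.60 ± 0.21 (adjusted p = 0.0432). Of its 3 probe sets 1 passed; the other two gave 0.12 and -0.02. St3gal2, a sialyltransferase of the Golgi, went from 11.69 to 11.93 under dexamethasone to 9.97 to 10.60 in the combination, against 10.20 to 10.31 in vehicle, a change of -1.52 ± 0.20 (adjusted p = 0.0432). Its second probe set gave -1.62 and did not pass (adjusted p = 0.291).

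Pla2g12a departed from this pattern. It encodes a secreted phospholipase A2, and its arrays read 11.36, 11.13 and 10.76 in vehicle, 12.02, 11.53 and 11.84 under dexamethasone, and 9.51, 10.09 and 9.36 in the combination. It fell by 2.14 ± 0.26 on the log2 scale (4.41-fold, adjusted p = 0.036), and every combination array lay below every vehicle array. The difference of -1.43 from vehicle did not pass (adjusted p = 0.511). An unnamed, dim probe set showed the same order of group means, with 4.70 to 4.85 in the combination, 6.01 to 6.61 under dexamethasone and 5.78 to 6.30 in vehicle. Its change was -1.61 ± 0.23 (adjusted p = 0.0488). The combination signal was near the pseudocount, so this size is uncertain. Only 11 of the 23 alternative fits tested this probe set, and it passed in 1 of them. Its change ran from -1.84 to -0.83 there.

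The genes that rose included a decarboxylase of muscle, a membrane proteolipid, a calcium-binding protein and regulators of translation and the cell cycle. Gadl1, which makes beta-alanine, a building block of carnosine, and hypotaurine, was at 11.75, 11.59 and 11.91 in vehicle, 8.89, 9.0 and 9.97 under dexamethasone and 11.51, 11.42 and 11.75 in the combination. It rose by 2.27 ± 0.29 (4.83-fold, adjusted p = 0.036). Gpm6b, a membrane glycoprotein of the proteolipid family, read 10.25, 10.73 and 10.82 in vehicle, 8.10, 7.55 and 8.64 under dexamethasone and 10.35, 10.21 and 10.65 in the combination. Its rise was 2.31 ± 0.30 (adjusted p = 0.036), although a dim second probe set gave 0.22. In both genes the dexamethasone arrays alone were low, and the other 2 groups overlapped.

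Cib2, calcium and integrin binding protein 2, was low only under dexamethasone. Its arrays read 8.83, 8.80 and 9.08 in vehicle, 7.51, 7.23 and 7.48 under dexamethasone and 9.25, 9.21 and 9.07 in the combination, a rise of 1.77 ± 0.18 (adjusted p = 0.0179). The predicted genes LOC100909396 and LOC102548331, of unknown function here, had the same adjusted p. LOC100909396 measured 7.44, 8.16 and 7.58 in vehicle, 4.99, 5.37 and 5.39 under dexamethasone and 7.90, 7.44 and 7.95 in the combination, and its rise was 2.51 ± 0.25. Its dexamethasone signal was near the pseudocount, so the size is uncertain: it was 3.03 with a pseudocount of 4 and 1.63 with 64. For LOC102548331 the change was 2.10 ± 0.21, with 8.35, 7.77 and 8.30 under dexamethasone and 10.17, 10.16 and 10.38 in the combination.

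Paip1 and Tfdp1 lay above the vehicle arrays in the combination. Paip1, which binds the poly(A)-binding protein and stimulates translation initiation, read 9.93, 10.01 and 10.16 in vehicle, 8.77, 8.31 and 8.87 under dexamethasone and 10.23, 10.19 and 10.43 in the combination, a rise of 1.64 ± 0.20 (adjusted p = 0.036). A second probe set gave 1.75 (adjusted p = 0.293). Tfdp1, the partner with which E2F factors bind DNA, was at 11.18, 11.27 and 11.51 in vehicle, 10.11, 10.49 and 10.06 under dexamethasone and 11.72, 11.52 and 11.60 in the combination. It rose by 1.40 ± 0.19 (adjusted p = 0.0472). The differences from vehicle were 0.25 for Paip1 and 0.29 for Tfdp1, and neither passed.

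Inhca and Ccnd1 differed in where the combination lay. Inhca, an inhibitor of carbonic anhydrase related to transferrin, read 8.27, 8.14 and 8.45 in vehicle, 7.27, 6.34 and 7.59 under dexamethasone and 9.06, 9.45 and 9.48 in the combination. It rose by 2.27 ± 0.31 (adjusted p = 0.0472), and the combination was 1.05 above vehicle, with no overlap. A second, dim probe set gave 0.41. Cyclin D1 (Ccnd1), which drives cells from G1 into S phase, read 7.65, 8.12 and 8.17 in vehicle, 4.96, 4.59 and 4.87 under dexamethasone and 7.20, 6.93 and 6.72 in the combination. The rise from dexamethasone was 2.14 ± 0.22 (adjusted p = 0.0179), and the combination arrays stayed below all vehicle arrays, by 1.04 on average. The dexamethasone signal of this probe set was near the pseudocount, so the size of the rise is uncertain. It ran from 1.20 to 2.84 over the alternatives in which the probe set was tested. The brightest probe set of Ccnd1 gave 1.71 ± 0.43 (adjusted p = 0.17) and another 0.78 (adjusted p = 0.712). The gene was thus called from 1 of 3 probe sets.

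**Figure D2:**
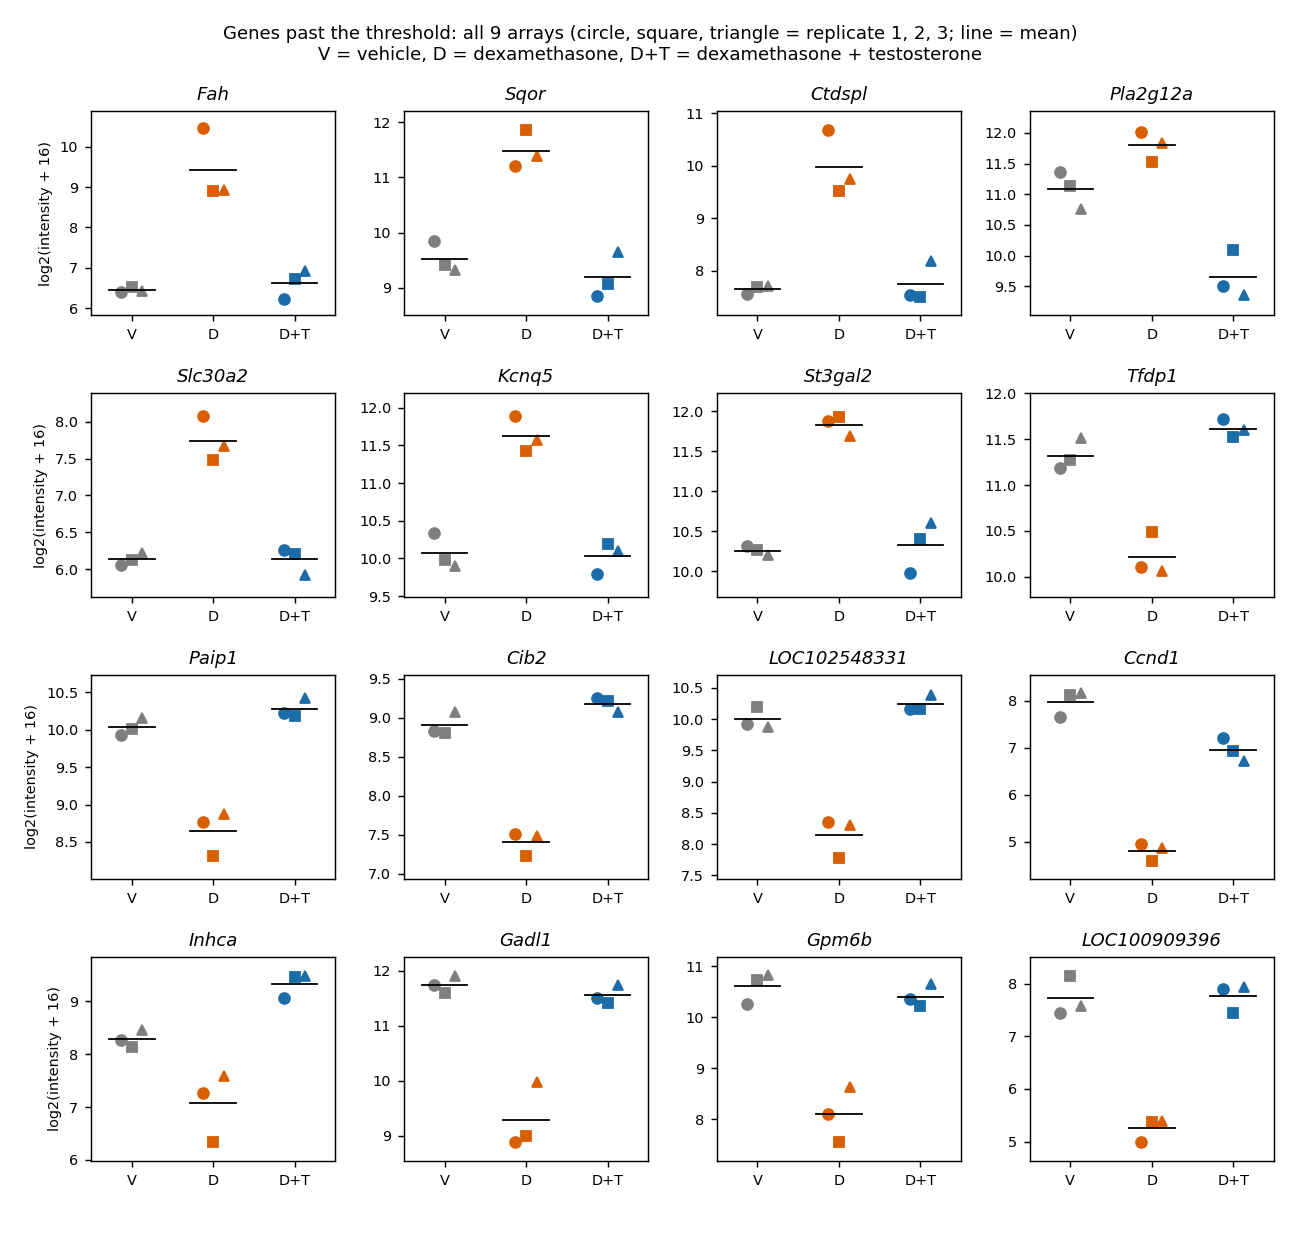
Log2 signal of the named genes past the threshold in each of the 9 arrays, grouped as vehicle, dexamethasone and combination. In all 16 genes the combination arrays lie wholly above or wholly below the dexamethasone arrays, which is in large part built in by the choice of these genes.

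Promoter sequence was set beside these genes because the glucocorticoid receptor binds the half-sites AGAACA and TGTTCT. In the 250 bases upstream of RefSeq starts (GRCr8), a half-site on either strand stood in 3 of 20 windows (15.0%) of the 14 genes past the threshold that were matched, of 16. Over all 33469 windows the share was 17.5%, and over those of the genes tested 10.8%. The full element, AGAACA and TGTTCT with any 3 bases between them, was in none of the 20 windows and in 4 of all windows (0.012%). In the list of glucocorticoid receptor targets, whose values come next, a half-site stood in 1 of 33 windows (3.03%) and the full element in 0. The 3 promoters that held a half-site, written 5′ to 3′ on the gene's strand with half-sites in capitals, were those of Slc30a2 (chr5:151843931-151844180, + strand), Sqor (chr3:130299981-130300230, + strand) and LOC100909396 (chr2:63557267-63557516, - strand).
Slc30a2: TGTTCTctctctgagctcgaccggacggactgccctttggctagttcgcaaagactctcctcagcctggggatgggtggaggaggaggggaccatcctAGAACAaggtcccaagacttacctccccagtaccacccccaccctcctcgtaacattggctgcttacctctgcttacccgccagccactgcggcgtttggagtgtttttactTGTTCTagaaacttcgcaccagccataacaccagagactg
Sqor: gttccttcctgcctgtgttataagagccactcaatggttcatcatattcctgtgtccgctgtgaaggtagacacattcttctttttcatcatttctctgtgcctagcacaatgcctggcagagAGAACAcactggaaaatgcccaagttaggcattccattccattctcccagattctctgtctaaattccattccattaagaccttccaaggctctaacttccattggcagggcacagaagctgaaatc
LOC100909396: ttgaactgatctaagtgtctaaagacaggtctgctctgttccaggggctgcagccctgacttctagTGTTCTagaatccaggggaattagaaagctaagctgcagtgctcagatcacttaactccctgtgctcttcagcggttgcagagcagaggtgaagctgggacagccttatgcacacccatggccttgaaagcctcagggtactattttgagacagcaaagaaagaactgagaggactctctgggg
Slc30a2 held 3 half-sites, whose first bases lay 250, 152 and 40 bases upstream of the start. Sqor had its half-site at 127 bases and LOC100909396 at 184 bases upstream. The first pair of genes fell and the last rose. A match is a description of these letters and not of receptor binding, which these arrays do not measure.

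Target genes of the glucocorticoid receptor were lower in the combination than under dexamethasone as a list, with no single member past the threshold. Of 38 listed genes, 35 were on the array and 32 were tested. The 3 combination arrays lay below the 3 dexamethasone arrays in 17 of the 32 (53.1%) and above them in 0, against 8.66% lower and 7.68% higher over all 10428 genes tested. The median difference was -0.95 (0.00 over all genes), with medians of -1.19, -0.83 and -0.60 between the arrays numbered 1, 2 and 3, and 27 of the 32 differences were below 0. It was -1.02 without replicate 3 of both hormone groups. The medians against vehicle were 1.33 for dexamethasone and 0.32 for the combination. The list was chosen with earlier results of these data known, and both comparisons use the same dexamethasone arrays. Its share of separated genes is therefore a description and no independent support. With limma, 0 of 32 passed, beside a background of 0.144% of genes.

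Mt2A, a metallothionein that binds zinc and other metals, had 12.95, 11.06 and 11.43 under dexamethasone and 8.97, 9.32 and 9.24 in the combination, with 7.97 to 8.43 in vehicle. The combination arrays lay between the other 2 groups. The difference was -2.64 ± 0.43 (adjusted p = 0.0761). Ddit4 (REDD1), a repressor of mTORC1, read 10.26, 11.51 and 10.22 under dexamethasone, 7.88, 8.94 and 7.75 in the combination and 7.23 to 7.76 in vehicle, a difference of -2.47 ± 0.42 (adjusted p = 0.0808). Errfi1, an inhibitor of the EGF receptor, differed by -2.0 ± 0.35, and Tsc22d3 (GILZ), an anti-inflammatory mediator, by -0.97 ± 0.18 (both adjusted p = 0.0852). In Tsc22d3 the combination arrays, at 11.10, 11.41 and 11.32, lay among or just above the vehicle arrays at 11.09 to 11.37.

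Several transcription factors of the list kept intermediate levels. Cebpd, a C/EBP factor, was at 7.81 to 8.19 in vehicle, 10.48 to 11.45 under dexamethasone and 8.94 to 9.98 in the combination, a difference of -1.67 ± 0.33 (adjusted p = 0.101). Klf15, a regulator of amino acid breakdown, differed by -0.93 ± 0.24 (adjusted p = 0.182) and the clock gene Per1 by -1.12 ± 0.22 (adjusted p = 0.101). Foxo3, a factor that drives atrophy genes, gave -0.86 ± 0.29, with replicate 3 of both groups at 9.79. Fkbp5, a co-chaperone of the receptor and a common marker of its activity, gave -0.65 from its brightest probe set and -1.66 from a second. Its combination arrays ranged from 8.91 to 10.93 and overlapped the dexamethasone arrays at 9.71 to 11.56. The receptor itself, Nr3c1, was at 10.10 to 10.92 under dexamethasone and 10.71 to 11.10 in the combination, a difference of 0.39 ± 0.23 that did not pass.

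**Figure D3:**
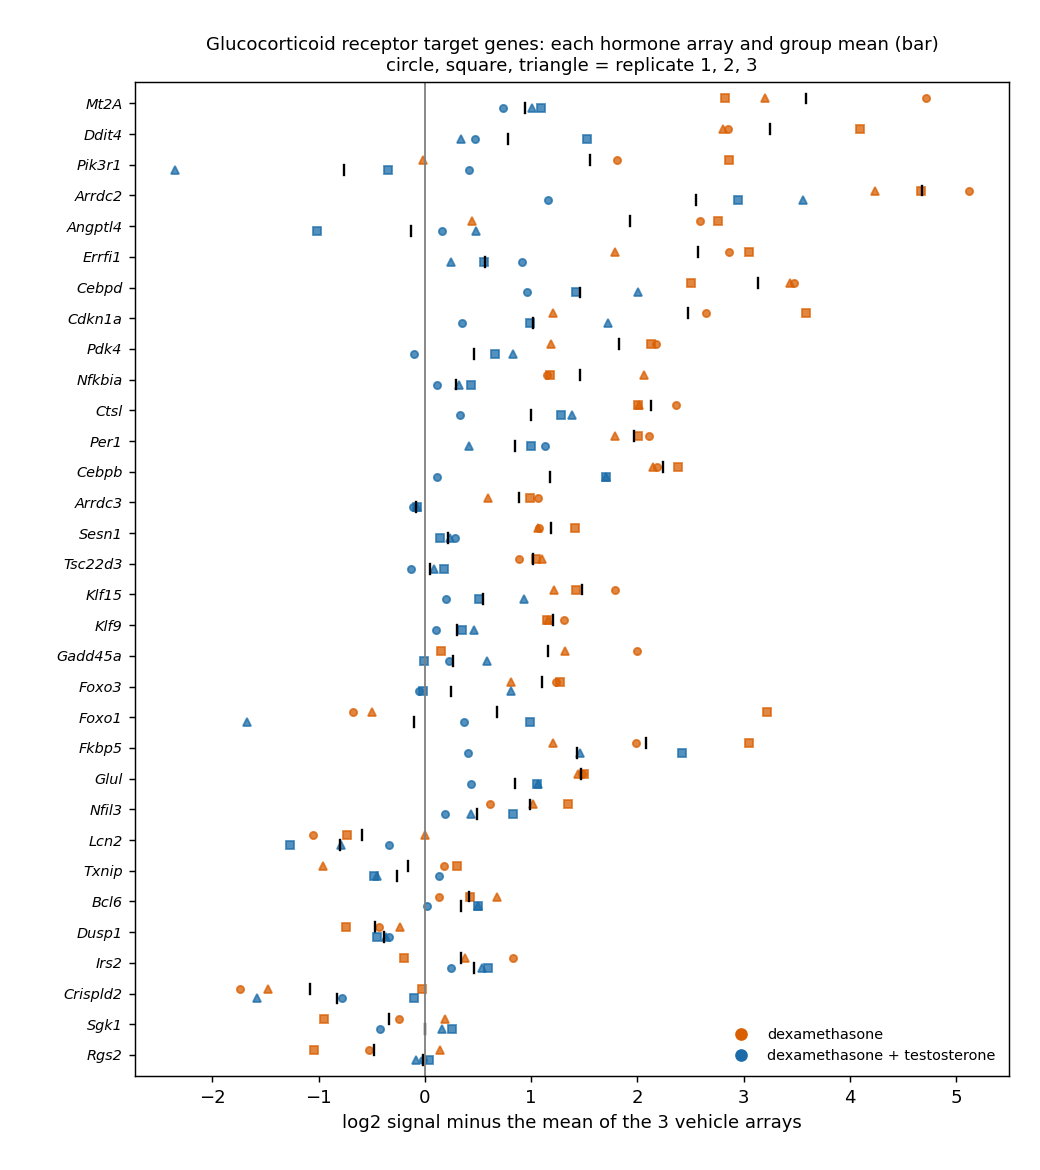
Log2 signal minus the mean of the 3 vehicle arrays (x axis) for the 32 tested glucocorticoid receptor target genes (y axis), with 1 symbol per array and a bar at each group mean. In 17 genes all blue symbols (combination) lie to the left of all orange ones (dexamethasone), and in none the reverse.

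In the amino acid metabolism list 3 of 44 tested genes passed with their brightest probe set: Gadl1 rose, and Fah and Sqor fell. Over all 10428 genes tested, 15 passed in this way (0.144%). The list was chosen with earlier results of these data known, so the count is a description. Over the 44 tested genes of the list, 10 were separated downwards and 3 upwards (29.5%, against 16.3% of all genes) and the median difference was -0.18, or -0.36 without combination replicate 2, -0.08 without combination replicate 3 and -0.06 with array weights. Prodh, which starts proline breakdown, read 9.25, 8.77 and 7.94 under dexamethasone, 5.54, 6.98 and 5.71 in the combination and 4.70 to 5.81 in vehicle. Its difference of -2.58 ± 0.47 did not pass (adjusted p = 0.0852), and the same held for Gnmt, a glycine methyltransferase, at -2.39 ± 0.44. Arg2, mitochondrial arginase, gave -2.70 ± 0.67 (adjusted p = 0.164), with its combination array 3 at 8.47 and the other two at 6.31 and 6.77. Glutamine synthetase (Glul) was at 14.40 to 14.45 under dexamethasone, 13.39 to 14.02 in the combination and 12.84 to 13.04 in vehicle. That order, with the combination between the other groups, left a difference of -0.63 ± 0.21 (adjusted p = 0.31).

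Among genes of protein breakdown, proteasome subunits had lower values in the combination. Of 38 proteasome genes tested, 17 were separated downwards and 1 upwards (47.4% in all, against 16.3% of all genes). Of the differences 32 were below 0, and the median was -0.30, with -0.45, -0.09 and -0.35 between same-numbered arrays. The median was small, some single genes differed by more, and none passed limma. Psmd4, a ubiquitin receptor of the regulatory particle, read 11.95, 11.27 and 11.76 under dexamethasone and 10.48, 10.71 and 10.87 in the combination, against 10.52 to 10.69 in vehicle (-0.98 ± 0.22, adjusted p = 0.127). Psmd8, a lid subunit, gave -1.19 ± 0.27 (adjusted p = 0.134), Psmd3 -0.82 ± 0.22 and the ATPase Psmc5 -0.70 ± 0.19. The list's median against vehicle was 0.35 for dexamethasone and 0.03 for the combination.

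The ubiquitin ligases that mark muscle atrophy were less uniform. Of 29 tested genes of that list, 6 were separated downwards and 0 upwards (20.7%, near the 16.3% of all genes). The median difference was -0.21, or -0.12 without dexamethasone replicate 3 and -0.35 with the median over the probe sets of each gene. Trim63 (MuRF1), a ligase for myosin and other sarcomere proteins, had 13.30, 12.46 and 11.77 under dexamethasone, 11.43, 11.68 and 11.10 in the combination and 11.32 to 11.49 in vehicle. The hormone groups did not overlap, while the combination overlapped vehicle, and the difference from dexamethasone was -1.11 ± 0.35 (adjusted p = 0.286). Fbxo32 (atrogin-1) read 8.16, 8.14 and 5.61 under dexamethasone, so that replicate 3 was below the vehicle arrays at 5.94 to 6.26, and the difference from the combination was -1.04 ± 0.62. Foxo1 was likewise uneven, at 6.27, 10.17 and 6.45 under dexamethasone (-0.78 ± 1.01). Fbxo31, another F-box gene, gave -0.83 ± 0.26.

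In the autophagy and lysosome list 8 of 32 tested genes were separated downwards and 1 upwards (28.1%, against 16.3% of all genes). The median was -0.22, or -0.11 without combination replicate 1 and -0.13 without dexamethasone replicate 1. Ctsl, the lysosomal protease cathepsin L, was at 13.75, 13.39 and 13.40 under dexamethasone and 11.72, 12.67 and 12.77 in the combination, against 11.35 to 11.45 in vehicle (-1.12 ± 0.28, adjusted p = 0.164). Atg4a, a protease that processes Atg8 proteins, gave -0.71 ± 0.21. Gabarapl1, one of those Atg8 proteins, gave -1.20 ± 0.35 and the mitophagy receptor Bnip3 -0.58 ± 0.20. None of these passed limma.

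Growth signalling genes pointed in both directions. The IGF, mTOR and myostatin list had 48 tested members and a median of 0.00. Of these, 5 were separated upwards and 8 downwards (27.1%, against 16.3% of all genes). Besides Ddit4, the lower ones included the translation repressor Eif4ebp1 (4E-BP1), at 13.46, 12.19 and 12.17 under dexamethasone and 10.37, 11.31 and 10.84 in the combination, with 9.93 to 10.44 in vehicle (-1.76 ± 0.38, adjusted p = 0.116). Sesn1, a sestrin that restrains mTORC1, differed by -0.97 ± 0.19 (adjusted p = 0.0959) and Igfbp3, an IGF-binding protein, by -1.24 ± 0.24 (adjusted p = 0.0923). Genes of the same kinds lay on the other side: the mTORC1 inhibitor Deptor differed by 1.32 ± 0.36 (adjusted p = 0.213) and Igfbp5 by 1.87 ± 0.46 (adjusted p = 0.164), both separated upwards. Irs1, which couples the insulin and IGF-1 receptors to their kinases, read 5.56, 5.53 and 5.96 under dexamethasone and 7.25, 7.00 and 6.68 in the combination, among or near the vehicle arrays at 6.85 to 7.57 (1.29 ± 0.26, adjusted p = 0.101).

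The growth factor, its receptor and myostatin, from the same list, did not pass the test. Igf1, the growth factor, gave 0.60 ± 0.35 (95% interval -0.19 to 1.40) from its brightest probe set and 0.30 and 0.35 from the others. Its receptor Igf1r gave -0.10 ± 0.23 (-0.62 to 0.42). Myostatin (Mstn), which limits muscle mass, read 8.72, 9.18 and 6.84 under dexamethasone and a combination mean of 8.15, a difference of -0.09 ± 0.65 (-1.56 to 1.37). These intervals leave room for changes of 1 or more on the log2 scale in Igf1 and Mstn, in either direction for Mstn.

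Fatty acid genes were lower in the combination as a list. Among 46 tested members 13 were separated downwards and 1 upwards (30.4%, against 16.3% of all genes). Of the differences 40 were below 0, and the median was -0.45, with -0.38, -0.57 and -0.36 between same-numbered arrays. Pnpla2, the adipose triglyceride lipase, had 12.86, 13.04 and 12.34 under dexamethasone, 10.38, 10.97 and 11.42 in the combination and 10.09 to 10.84 in vehicle (-1.82 ± 0.33, adjusted p = 0.0852). Cpt1b, which admits fatty acids to muscle mitochondria, gave -0.99 ± 0.19 (adjusted p = 0.0959), with all combination arrays, at 11.82 to 11.93, also below the vehicle arrays at 11.97 to 12.32. The dehydrogenase Acadl gave -1.12 ± 0.23 and the reductase Decr1 -1.07 ± 0.25. The list's median against vehicle was 0.30 for dexamethasone and -0.15 for the combination.

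Genes of glucose metabolism had a smaller median. Of 37 tested genes of glycolysis, glycogen and glucose transport, 12 were separated upwards and 3 downwards (40.5%, against 16.3% of all genes). The median was only 0.07, or 0.26 to 0.27 under the other 2 normalizations. Fbp2, the muscle fructose-bisphosphatase, was at 9.60, 9.69 and 9.44 under dexamethasone and 11.32, 10.63 and 11.00 in the combination, near the vehicle arrays at 10.66 to 10.87 (1.41 ± 0.21, adjusted p = 0.0617). The glycerophosphate dehydrogenases Gpd2 and Gpd1 gave 1.01 ± 0.24 and 0.63 ± 0.17, and the lactate exporter Slc16a3 (MCT4) 0.81 ± 0.20. The largest difference of the list was a fall, in Ldhb (-2.09 ± 0.78, adjusted p = 0.366). It read 12.87, 13.55 and 13.36 under dexamethasone and 9.01, 12.71 and 11.78 in the combination. Respiratory chain and ATP synthase subunits showed little: 3 of 57 were separated (5.26%, below the 16.3% of all genes) and the median was 0.10, or -0.02 without dexamethasone replicate 1. Ppargc1a, a coactivator of mitochondrial genes, gave 0.37 ± 0.23.

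Slow fibre genes were far lower in part of the combination group. Of 19 tested genes of the slow contractile list, 11 were separated downwards and 1 upwards (63.2%, against 16.3% of all genes). Of the differences 18 were below 0, with a median of -2.18. The arrays were uneven: the median was -4.41 between the arrays numbered 1, -0.55 between those numbered 2 and -1.30 between those numbered 3. Myh7, the slow myosin heavy chain, read 14.84, 14.47 and 14.52 in vehicle, 14.96, 14.71 and 14.90 under dexamethasone and 8.74, 14.52 and 14.14 in the combination. Slow troponin T (Tnnt1) read 7.42, 13.23 and 11.95 in the combination, against 13.61 to 13.85 under dexamethasone and 13.02 to 13.51 in vehicle. Combination replicate 1 was thus far below all other arrays, replicate 3 lay below them by less, and replicate 2 lay among or near the vehicle arrays. Because of that spread, Myh7 (-2.40 ± 1.24), Tnnt1 (-2.83 ± 1.17) and slow tropomyosin Tpm3 (-3.09 ± 0.75) did not pass. Without combination replicate 1 the list's median was -0.85.

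Other members of the list varied less between the combination arrays. Csrp3, the muscle LIM protein of the Z-disc, was at 14.27, 14.14 and 13.31 under dexamethasone and 11.31, 12.61 and 11.25 in the combination, below the vehicle arrays at 12.80 to 12.86 (-2.18 ± 0.39, adjusted p = 0.0852). Smtnl1, a smoothelin-like regulator of contraction, gave -1.16 ± 0.21 (adjusted p = 0.0852), and Fhl1, a LIM protein of the sarcomere, gave -1.03 ± 0.24. Myh2, the myosin of type IIA fibres, followed the slow genes in replicate 1, with 12.71 against 14.55 and 14.22. The labels do not say from which part of the muscle each piece of tissue was taken.

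**Figure D4:**
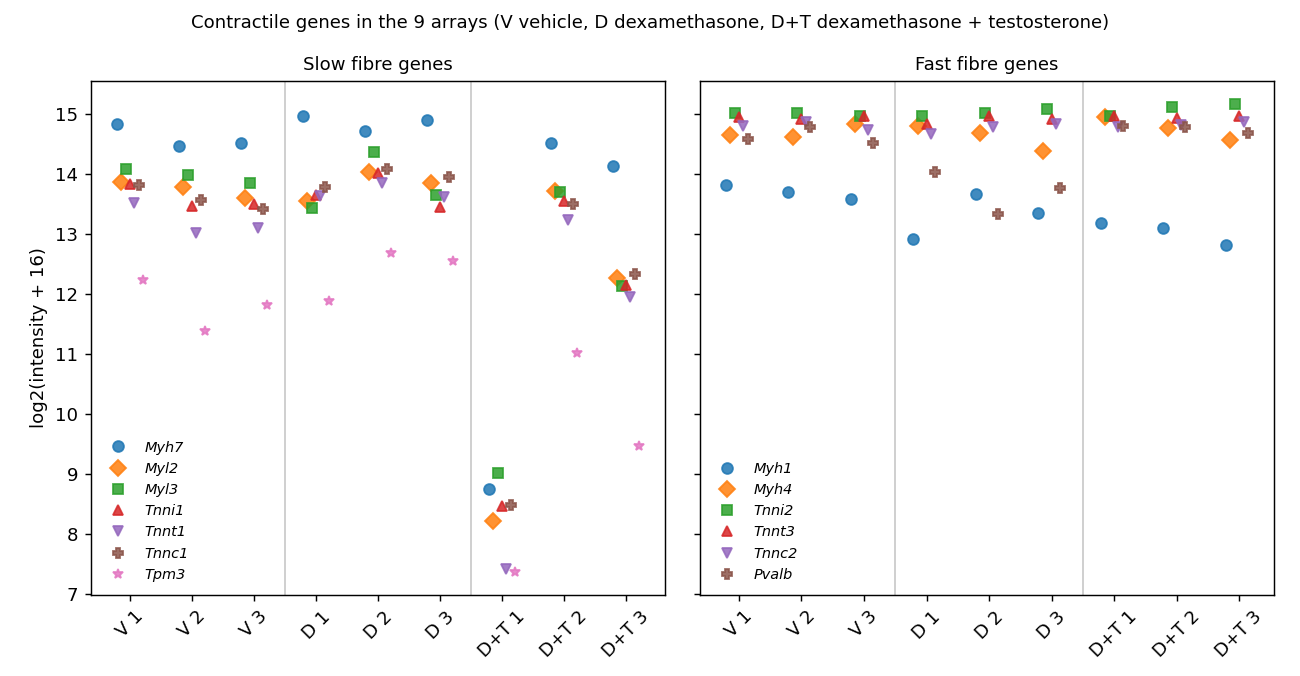
Log2(intensity + 16) (y axis) of 7 slow fibre genes (left) and 6 fast fibre genes (right) in each of the 9 arrays (x axis), with 1 symbol per gene. Slow genes in combination replicate 1 lie at 7.37 to 9.02. The fast genes Myh4, Tnni2, Tnnt3 and Tnnc2 stay near the same level in every array, at the top of the scale, which quantile normalization levels. Myh1 lies at 12.82 to 13.19 in the combination and 13.58 to 13.82 in vehicle. Pvalb lies at 13.34 to 14.04 under dexamethasone and 14.69 to 14.80 in the combination.

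Fast fibre and calcium handling genes that were separated lay mostly on the higher side in the combination. Of 21 tested fast contractile genes 8 were separated upwards and 1 downwards (42.9%, against 16.3% of all genes). The median was only 0.09, or 0.39 to 0.40 under the other 2 normalizations. Parvalbumin (Pvalb), the calcium buffer of fast fibres, read 14.04, 13.34 and 13.76 under dexamethasone and 14.80, 14.78 and 14.69 in the combination, among or near the vehicle arrays at 14.51 to 14.79 (1.04 ± 0.21, adjusted p = 0.104). Of 31 calcium handling and calcineurin genes, 14 were separated upwards and 2 downwards (51.6%, against 16.3% of all genes). Their median was 0.32, and 0.37, 0.53 and 0.31 between same-numbered arrays. Cib2 alone of them passed.

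Among calcium genes that did not pass, Jph2, which tethers the sarcoplasmic reticulum to the surface membrane, gave 1.09 ± 0.25 (adjusted p = 0.141). Cacna1s, the voltage sensor of muscle, gave 0.63 ± 0.18 and the store protein Casq1 0.48 ± 0.16. The calcineurin subunit Ppp3cb gave 0.66 ± 0.17, with 11.59 to 11.76 under dexamethasone and 12.24 to 12.51 in the combination, overlapping the vehicle arrays. Ryr3, the ryanodine receptor of immature muscle, went the other way: it read 8.33, 11.35 and 11.19 under dexamethasone and 6.40, 5.79 and 7.48 in the combination, against 4.48 to 6.54 in vehicle. The difference of -3.74 ± 0.86 did not pass (adjusted p = 0.136). Rcan2, a regulator of calcineurin, gave 0.16 from its brightest probe set and 1.05 from a second.

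Extracellular matrix genes depended on the pair of arrays. Of 64 tested, 11 were separated upwards and 2 downwards (20.3%, near the 16.3% of all genes). The median was 0.43, but it was 1.56, 0.28 and -0.17 between the arrays numbered 1, 2 and 3. It was 0.22 without dexamethasone replicate 1, 0.69 without combination replicate 3 and 0.94 without replicate 3 of both hormone groups. Mfap4, a microfibril protein, read 4.86, 5.17 and 6.07 under dexamethasone, 7.87, 7.59 and 6.67 in the combination and 8.90 to 9.47 in vehicle (2.01 ± 0.39, adjusted p = 0.0959). Smoc2, a matricellular protein, gave 2.08 ± 0.49, the lysyl oxidase Loxl2 1.78 ± 0.39 and the microfibril protein Mfap5 1.27 ± 0.29. Collagen III (Col3a1) read 8.79, 10.80 and 12.23 under dexamethasone and 13.36, 12.53 and 12.51 in the combination, so the groups did not overlap although the differences within pairs ran from 4.57 to 0.29.

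Markers of fibroblasts and macrophages ran in the same order over the pairs as the matrix genes. For fibroblasts these are largely the same values, since Mfap5, Lum, Dpt, Col1a1, Col1a2 and Dcn are also in the matrix list. The fibroblast markers outside it were Pdgfra, with 0.78, -0.16 and -0.03 by pair, and Thy1, with -0.10, -0.21 and -1.39. The 8 fibroblast markers had a median difference of 1.02 (1.85, 0.24 and -0.48 by pair; 0.34 without dexamethasone replicate 1), and their median level ran from 8.10 to 10.22 under dexamethasone and from 9.74 to 10.96 in the combination. For the 7 macrophage markers the median was -0.25, with 1.20, -0.55 and -1.69 by pair. The part of these cells in the matrix values was not tested. Other marker lists had few tested members: 6 endothelial (median 0.01), 7 smooth muscle and pericyte (0.20), 4 adipocyte (-0.40), 3 Schwann cell (-0.25), 2 neutrophil (-0.71) and 2 red blood cell genes (0.38). Of 5 lymphocyte markers on the array none was bright enough to be tested. Of 5 listed satellite cell markers only Cdh15 and Itga7 could be tested, and Pax7, Myf5 and Cd34 could not. Cdh15 gave -1.23 ± 0.29 and Itga7 -0.67 ± 0.21. Both were separated, as were 16.3% of all genes, and both missed the threshold.

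**Figure D5:**
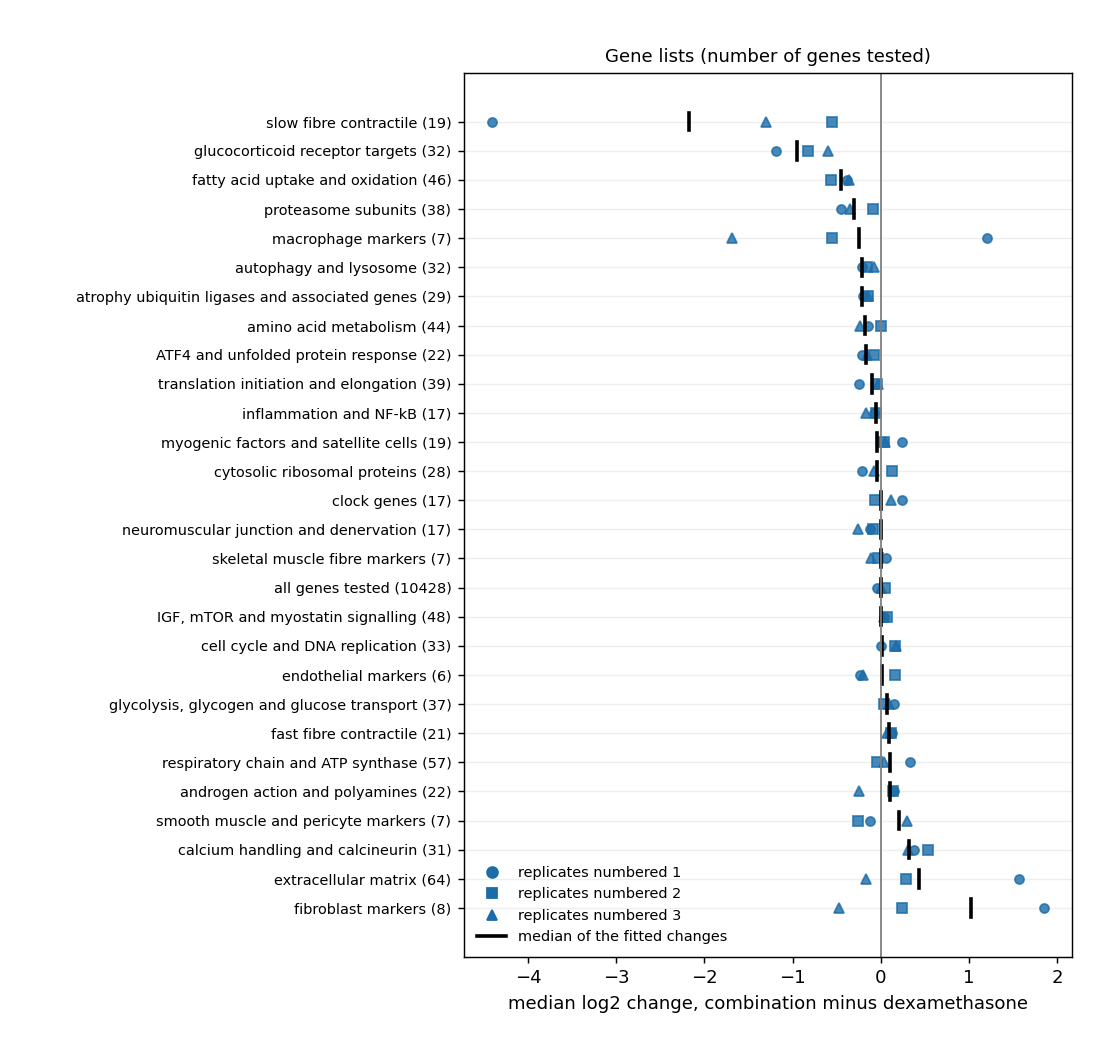
Median log2 difference between the combination and dexamethasone (x axis) over the tested genes of each list with 6 or more (y axis, number tested in brackets). The bar is the median of the fitted changes and the symbols are medians between same-numbered arrays, which lie close together for glucocorticoid receptor targets (-1.19 to -0.60) and far apart for slow fibre genes (-4.41 to -0.55).

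Genes tied to androgen action and polyamines did not move one way. Of 22 tested, 5 were separated upwards and 4 downwards (40.9%, against 16.3% of all genes). The median was 0.10, and Slc30a2 alone passed. Amd1, which makes the aminopropyl donor for spermidine and spermine, read 8.61, 9.53 and 9.85 under dexamethasone and 10.53, 10.73 and 10.43 in the combination, beside 9.83 to 10.53 in vehicle (1.23 ± 0.32, adjusted p = 0.188). Odc1, ornithine decarboxylase, gave -0.08 and the spermine oxidase Smox -0.23.

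Cell cycle and clock lists lay near the background. Of 33 cell cycle genes 3 were separated upwards and 1 downwards (12.1%, against 16.3% of all genes), with Tfdp1 past the threshold. Cdkn1a (p21), an inhibitor of cyclin-dependent kinases, gave -1.46 ± 0.55 with overlapping groups. Of 17 clock genes 2 were separated upwards and 1, Per1, downwards (17.6%, near the 16.3% of all genes). Bhlhe41 (DEC2), a repressor of the clock, read 9.29, 8.76 and 10.24 under dexamethasone and 11.30, 10.56 and 11.76 in the combination, near the vehicle arrays at 10.85 to 11.30 (1.78 ± 0.41, adjusted p = 0.134). The output factor Hlf gave 1.06 ± 0.24 (adjusted p = 0.136).

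In the translation list, where Paip1 rose, 8 of 39 genes were separated downwards and 2 upwards (25.6%, against 16.3% of all genes). The median was -0.10, or -0.20 without combination replicate 2. Eif4g3, a scaffold of the cap-binding complex, read 12.31, 11.80 and 12.01 under dexamethasone and 10.29, 10.37 and 11.06 in the combination, among or near the vehicle arrays at 10.25 to 10.75 (-1.47 ± 0.26, adjusted p = 0.0852). Of 28 cytosolic ribosomal protein genes, 2 were separated (7.14%, below the 16.3% of all genes) and the median was -0.05. In the ATF4 and unfolded protein list 5 of 22 were separated downwards and 2 upwards (31.8%, against 16.3% of all genes). The median was -0.17, or -0.27 without combination replicate 2, and ran from -0.34 to -0.06 over all alternatives. Chac1, which degrades glutathione and is a target of ATF4, was at 12.58, 11.83 and 12.03 under dexamethasone, 9.58, 10.83 and 11.52 in the combination and 8.23 to 9.04 in vehicle (-1.50 ± 0.46, adjusted p = 0.263).

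Synapse, myogenic and inflammatory lists had 17, 19 and 17 tested members and medians of 0.00, -0.05 and -0.06. Chrnd, a subunit of the acetylcholine receptor, gave -1.27 ± 0.36 (adjusted p = 0.224) with no overlap. Mest, an imprinted gene of growing tissue, read 5.29, 5.62 and 6.69 under dexamethasone, 8.12, 7.18 and 7.18 in the combination and 8.23 to 9.24 in vehicle (1.63 ± 0.42, adjusted p = 0.184). Nfkbia, the inhibitor of NF-kB, gave -1.17 ± 0.28 (adjusted p = 0.147). Il15, a cytokine made by muscle, was at 10.81 to 11.21 under dexamethasone and 10.31 to 10.59 in the combination, well above the vehicle arrays at 9.19 to 9.23, a difference of -0.55 ± 0.18 (adjusted p = 0.304).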

How the data were processed

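Gastrocnemius RNA of 9 rats was measured on Affymetrix rat arrays, 1 array per animal and 3 per group. The values deposited by the authors are linear intensities, 1 per probe set; the signal algorithm is not given in the sources used here. After trimming 2% of probe sets at each end, the mean was 500.3 in 5 arrays and 113.3 to 206.8 in the other 4, so the arrays did not share a scale. Of 31099 probe sets, 57 controls were left out. A pseudocount of 16 was added, and log2 values were quantile normalized over 9 arrays with limma 3.58.1 in R 4.3.3, which understates changes of low signals. A mean at or above the 40th percentile over all arrays was required. Group means were fitted over all 9 arrays (lmFit, eBayes), with Benjamini-Hochberg adjustment over the 18625 probe sets tested, after tests on simulated data; standard errors are those of this fit, and the number of arrays limits the precision. Symbols came from the platform annotation, updated by gene ID to GRCr8: 20826 probe sets had 1 symbol, 436 several and 9780 none, and 20758 were found by gene ID. A gene is represented by its brightest probe set on average. "Separated" means that the arrays of the groups do not overlap.

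Named are all genes past the threshold, 24 fixed hormone genes, of which 23 are reported, and up to 4 members per list with the lowest p among those with the same sign between all same-numbered arrays. Glul, Gnmt, Deptor, Igfbp5, Ldhb, Col3a1, Myh7, Tnnt1 and Myh2 were chosen after their values were seen. Members and lists were chosen with earlier results of these data known. Samples with the same number deviated together with correlations of 0.056, 0.367 and 0.587. These positive values give no ground for leaving out a block, yet the main fit had none. Blocks were fitted only as alternatives. Over 9 arrays, the replicate block left 0 calls and the technical batch block gave 22. Alternatives were other normalizations, pseudocounts, filters, blocks and variance models, and leaving out arrays.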

Additional observations from a re-analysis of the deposited data

How the results depend on the processing

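The count of 21 calls was 21 with trimmed-mean scaling, 22 with the technical batch as a block (12 of the 21 among them), 2 with centring on the median (both higher), 5 with a pseudocount of 4 (all higher), 102 with a pseudocount of 64, 83 with a filter at the 60th percentile, 47 with array weights, 149 with an intensity trend and robust variance, 39 without replicate 3 of both hormone groups (0 with the normalization over 9 arrays kept), and 0 with no filter or on the 6 hormone arrays alone. It ran from 0 to 67 with 1 array left out. The replicate block gave 0 calls over 9 and over 6 arrays. The pairing came from a shared number, which for the hormone arrays is also the inferred technical batch. In each of the 23 alternative fits, every one of the 21 probe sets that was still tested kept its direction and an unadjusted p under 0.05, which is in part built in, since the 21 were picked on the same arrays. Among named genes, 6 turned in sign under some alternative, none of which had passed. With array weights these were Foxo1 (0.29), Mstn (0.13) and Odc1 (0.10); without replicate 3 of both hormone groups it was Odc1 (0.16, or 0.17 with the normalization over 9 arrays). With 1 array left out, Foxo1 ran from -1.47 to 0.50, Igf1r from -0.34 to 0.04, Mstn from -0.78 to 0.44, Odc1 from -0.23 to 0.21, Rcan2 from -0.11 to 0.30 and Smox from -0.37 to 0.01. Of 32 list medians, 11 took the opposite sign under some alternative, among them the macrophage (-0.75 to 0.32), cell cycle (-0.07 to 0.18), inflammation (-0.12 to 0.12) and respiratory chain lists (-0.02 to 0.27). Others kept their sign, such as those for glucocorticoid receptor targets (-1.04 to -0.84), the proteasome (-0.42 to -0.25), fatty acid genes (-0.54 to -0.35) and calcium genes (0.28 to 0.45). With 3 animals per group, and signal in dim probe sets near the pseudocount, smaller changes cannot be resolved.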

Other observations

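Beyond the genes past the threshold, 28 genes higher and 31 lower in the combination had non-overlapping hormone arrays and an adjusted p (limma, Benjamini-Hochberg) between 0.05 and 0.1, a class chosen after the values were seen. The largest difference among them was in Nmrk2, a nicotinamide riboside kinase of muscle that feeds NAD synthesis. It read 12.22, 12.09 and 12.22 in vehicle, 6.71, 7.27 and 7.78 under dexamethasone and 12.95, 11.24 and 9.83 in the combination, a difference of 4.09 ± 0.64 (adjusted p = 0.0742). Its combination arrays spanned more than its vehicle arrays, and the difference between same-numbered arrays was 6.24, 3.97 and 2.06. Stbd1, which binds glycogen and anchors it to membranes, read 8.86, 9.42 and 10.03 under dexamethasone and 11.45, 11.28 and 11.12 in the combination, beside 11.47 to 11.50 in vehicle (1.85 ± 0.28, adjusted p = 0.0617). Myoz3, a Z-disc protein of fast fibres that binds calcineurin, gave 1.80 ± 0.35, and Hacd1, an enzyme of very long chain fatty acid synthesis with a role in muscle growth, 1.45 ± 0.24. Cpe, the prohormone-processing carboxypeptidase E, gave 1.72 ± 0.28.

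On the other side, Ampd3, an AMP deaminase known to be induced in wasting muscle, read 10.31, 10.19 and 9.51 under dexamethasone and 7.70, 8.51 and 7.48 in the combination, with 8.42 to 9.07 in vehicle (-2.10 ± 0.33, adjusted p = 0.0728). Tpd52l1, a tumour protein D52 family member, was at 8.90 to 9.09 under dexamethasone and 6.52 to 7.50 in the combination, at or below its lowest vehicle array of 7.50 (-1.80 ± 0.27, adjusted p = 0.0635). Olfml3, a secreted olfactomedin-like protein, gave -2.37 ± 0.44. Of the probe sets past the threshold with no symbol here, 4 rose, by 1.63 to 2.07 on the log2 scale. The one with the largest change rose from 8.23, 8.75 and 9.29 under dexamethasone to 11.23, 10.54 and 10.71 in the combination, among or near the vehicle arrays at 10.75 to 11.09. Another had all combination arrays, at 8.71 to 9.39, above all vehicle arrays, at 8.51 to 8.66.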
